A study of Mus musculus with 6 samples.

Results

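The proximal end of mouse chromosome 14 carries a long array of near-identical gene copies. Many of its members had more assigned reads in KO than in WT mouse embryonic fibroblasts (MEFs), while others overlapped between the genotypes. The rule that chose the members leaned on KO, as described below. Members were all genes of the deposited tables that the GENCODE annotation of GRCm38 places on chromosome 14 with a start below 8000000 and that reached 10 or more expected counts in at least 1 library. The rule found 41 genes of the 55487 in the tables. The tables list 185 genes in that interval, and the other 144 stayed under 10 expected counts in every library, 91 of them at 0 throughout. Of the 41 members, 35 are annotated as protein-coding, 5 as processed transcripts and 1 as a processed pseudogene.

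MEFs are primary connective-tissue cells grown from mouse embryos. RNA was sequenced from 6 libraries of untreated cultures, 1 KO and 1 WT library at each of passages 2, 3 and 4, a passage being one round of replating. The knocked-out gene, the mouse strain and the number of embryos behind each culture are not given in the labels, so p-values measure the spread between these libraries, which may all come from 1 culture per genotype. The number of array copies in the genome of each culture was not analysed here, and values are reads assigned to the copies of the reference genome, which cannot tell more copies from more RNA per copy. Genotype was taken from the title of each library. Their separate genotype label disagrees with the title at KO passages 3 and 4, where it says WT.

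Most of the array belongs to the takusan family, a rodent gene family that multiplied on this chromosome and whose name is Japanese for "many". Its genes are related to part of Dlg5, a membrane-associated guanylate kinase scaffold. In rodent neurons, alpha-takusan proteins are known to bind PSD-95, the postsynaptic scaffold encoded by Dlg4, and to influence synaptic receptor clustering. The RefSeq gene table for GRCm38.p6 lists takusan among the synonyms of 2610042L04Rik, a member of the array.

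The copies differ by few bases, which sets how far reads can be told apart. The same coding exon of 132 bases is printed below for Gm3591, the repeated copy with the highest mean level, and for 4 other copies, from the GENCODE M21 transcripts. Capitals mark bases that differ from Gm3591, and positions count from 1 at the 5′ end of the exon.
Gm3591: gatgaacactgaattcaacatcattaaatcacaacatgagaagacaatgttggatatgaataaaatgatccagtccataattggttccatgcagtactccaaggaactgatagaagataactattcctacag
Gm3636: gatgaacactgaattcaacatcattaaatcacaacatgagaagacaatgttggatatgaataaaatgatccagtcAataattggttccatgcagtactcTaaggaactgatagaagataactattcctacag
Gm3558: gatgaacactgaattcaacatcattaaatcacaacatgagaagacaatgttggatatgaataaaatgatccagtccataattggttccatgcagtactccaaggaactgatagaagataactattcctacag
Gm2974: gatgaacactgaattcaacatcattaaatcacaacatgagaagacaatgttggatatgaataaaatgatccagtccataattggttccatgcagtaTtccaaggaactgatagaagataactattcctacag
Gm3512: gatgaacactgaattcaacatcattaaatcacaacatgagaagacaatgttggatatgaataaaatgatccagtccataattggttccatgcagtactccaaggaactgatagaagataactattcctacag
The exon lies on GRCm38 at chr14:6410369-6410500 in Gm3591, chr14:6740221-6740352 in Gm3636, chr14:7550650-7550781 in Gm3558 and chr14:7158136-7158267 in Gm3512, all on the minus strand, and at chr14:4199263-4199394 on the plus strand in Gm2974. Gm3636 carries C76A and C100T, Gm2974 carries C97T, and the exons of Gm3558 and Gm3512 are identical to that of Gm3591. A read inside the exon of these 3 cannot be assigned from sequence. Over whole transcripts, Gm3591-201 (1745 bases) and Gm3636-202 (1746 bases) were 99.1% identical, with 15 differing positions and a longest identical run of 320 bases. Of all windows of 97 bases along that alignment, 44.7% held no difference. The annotated length of long genes exceeded the effective length in the tables by 96.6 to 97.9 bases, which is the scale of the sequenced fragments in the RSEM model.

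Sequence sharing was measured as the percentage of a gene's 64-base words, on either strand, that another gene's transcripts also hold. At a bound of 25%, 38 of the 41 members shared sequence, against 19.4% of all genes with a transcript. Dnase1l3 at the distal edge shared 0% and Gm10044 shared 7.33%. Linking members when 25% or more of the words of either occur in the other gave 4 groups. The largest, called the takusan group here because it holds 2610042L04Rik, had 26 protein-coding members. A second held Gm5795, Gm3149, Gm8279 and Gm3453. Another was the pair D830030K20Rik and Gm16440. The last held 4 non-coding processed transcripts, Gm26650, Gm26552, Gm26893 and Gm26680. Gm3248 and Gm17045 shared words with other genes but joined no group.

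**Figure D1:**
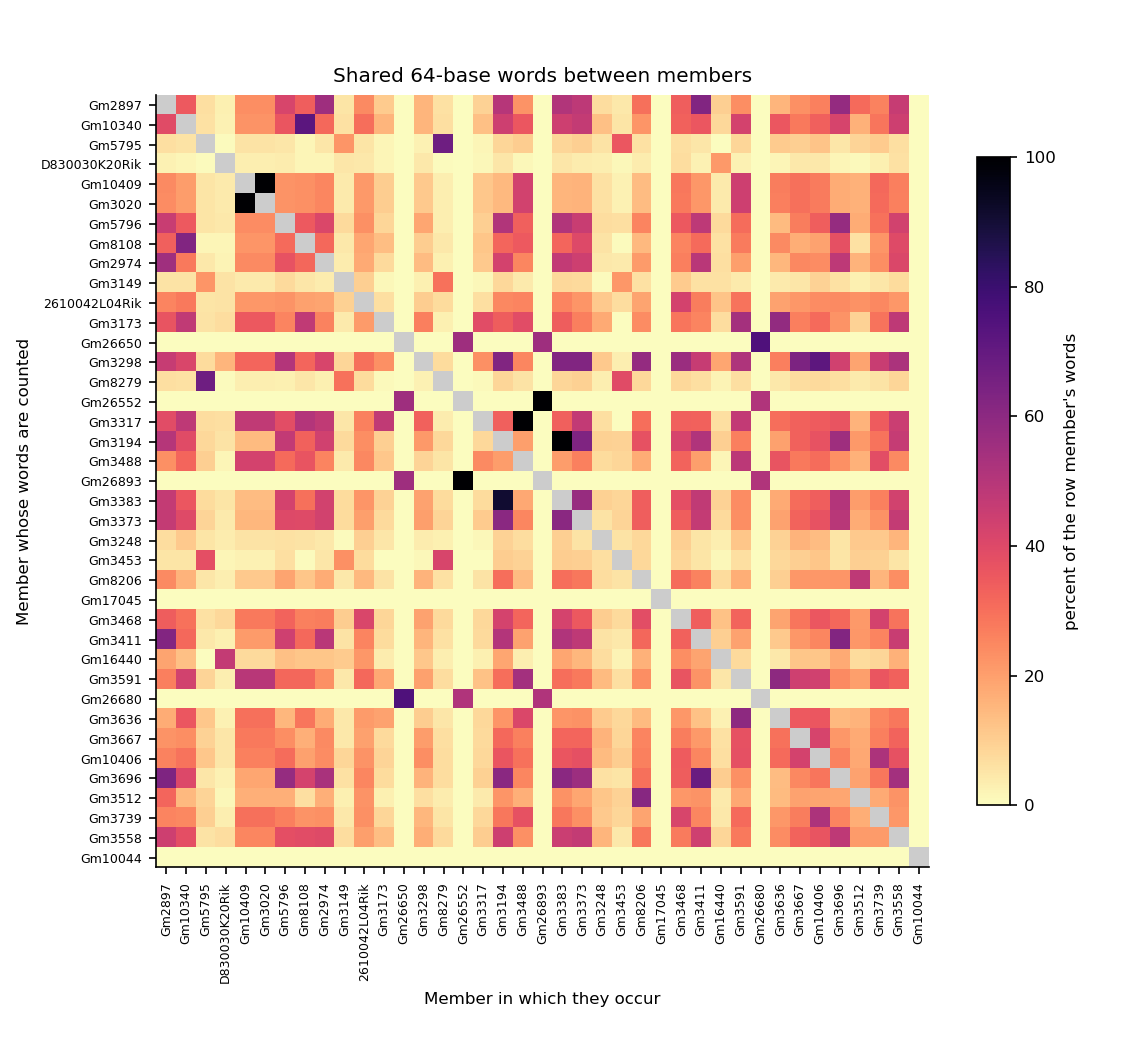
Percentage of the 64-base words of each of the 39 members that share any word (rows) that occur in each other member (columns), both in order of position, with the colour scale from 0 to 100 percent and the diagonal in grey. The 26 takusan group members form a mesh of partial sharing, the 4 processed transcripts share with one another, and Gm10044 stands apart.

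The deposited values carry the mark of this sharing. RSEM divides an ambiguous read among genes in fractions, and 91.5% of the non-zero counts of the 39 members that share any word were not whole numbers, against 30.4% over all genes. In 3 pairs the counts were the same in all 6 libraries, namely Gm10409 with Gm3020, Gm3317 with Gm3488, and Gm26552 with Gm26893. Transcripts Gm10409-201 and Gm3020-202 were 100% identical over 1933 bases. The spans of members also overlap on the chromosome in 6 pairs, 4 of them on opposite strands, and the strand setting of the counting is not given in the sources used here. Counts of single copies are therefore uncertain, and sums over a group are the firmer values.

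The array changes orientation along its length. Of the 33 repeated protein-coding members, the 15 that start from 3049285 (Gm2897) to 5164535 (Gm3317) all lie on the plus strand. Of the 18 that start from 5438065 (Gm3194) onward, 17 lie on the minus strand and 1, Gm3488, on the plus strand.

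Library totals were 27361852, 67760880 and 30473493 expected counts in KO at passages 2, 3 and 4, and 42335628, 41933793 and 24853121 in WT. A count of 0 allows up to 3 counts, which is 0.0431 to 0.124 CPM (counts scaled by TMM to a common library size). Intervals and floors cover counting error at most. They leave out the division of shared reads by RSEM and the spread between libraries, and the reads carry no stated molecular identifiers. The cultures carried fibroblast markers throughout, with 14 of 14 tested and a summed level of 33095 to 37697 CPM in KO and 57034 to 67841 CPM in WT. Of these, 5 fell in KO, Col1a1, Col1a2, Col3a1, Pdgfra and Dcn (edgeR log2 -1.61 to -0.94). Xist had 417 to 567 CPM in KO and 0.121 to 0.301 CPM in WT. The 4 Y-linked genes averaged 0.0424 to 0.268 CPM in KO and 28.7 to 82.6 CPM in WT. Their KO counts lay almost wholly in passage 4, with 23 for Ddx3y, 8 for Eif2s3y, 4 for Kdm5d and 9.01 for Uty. At KO passages 2 and 3 they were 0, apart from 2 counts of Ddx3y at passage 2. Genotype and sex thus cannot be told apart in any comparison below.

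The count rule itself leaned on KO. Of the 41 members, 32 reached 10 counts in KO libraries only, 9 in both genotypes and 0 in WT libraries only. The 32 had to be higher in some KO library to enter, so their KO and WT values, and sums over members alone, are given as a description with no test. The rule also met unequal depth, the KO library of passage 3 being the deepest. Just inside it were Gm16440, Gm3298, Gm10340 and Gm26650, with highest counts of 10.22, 10.83, 12.94 and 13.71. Just outside it, 10 genes had highest counts of 5.15 (Gm21560) to 8.23 (Gm3252).

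The counts of all 177 genes of the interval that share sequence were also added together, whatever their level. The 26 takusan group members, described below, gave 5264 of its 6176 counts in KO and 719 of its 814 in WT. The interval and this sum were chosen with the values known, so the test of the sum is no independent evidence of a genotype difference. This sum was 46.6, 44.4 and 56.9 CPM in KO at passages 2, 3 and 4, against 8.42, 6.54 and 8.15 CPM in WT. Every KO library stood above every WT library, by 5.53-, 6.79- and 6.98-fold at passages 2, 3 and 4. The log2 change was 2.68 ± 0.16 (SE, n = 3 per genotype, edgeR quasi-likelihood test, Benjamini-Hochberg adjusted p = 0.000603 over all rows tested). It stayed between 2.56 and 2.75 when each library was left out in turn. The 144 genes of the interval under the count rule, added together, had 2.31, 1.32 and 1.70 CPM in KO against 0.547, 0.407 and 0.548 CPM in WT, a pooled ratio of 3.29 (95% interval 2.41 to 4.51).

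**Figure D2:**
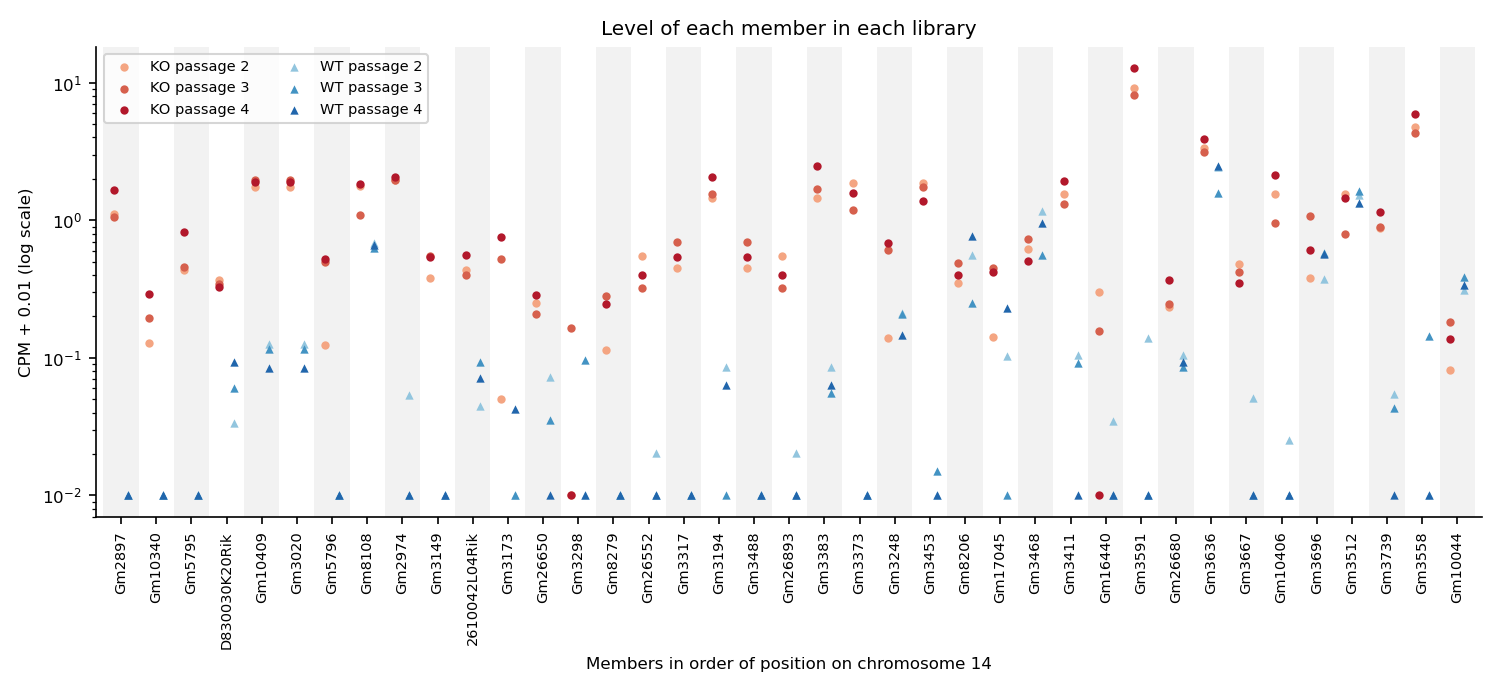
CPM plus 0.01 on a log scale for each of the 39 members that share any word, in order of position, with circles for the 3 KO libraries and triangles for the 3 WT libraries. WT triangles on the bottom line are values of 0; Gm3591 stood highest among the repeated copies in KO, with 8.15 to 12.7 CPM.

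The takusan group made up most of this signal. Its 26 members summed to 39.2, 37.6 and 49.5 CPM in KO, against 7.45, 5.83 and 7.08 CPM in WT. The pooled ratio was 6.04 (95% interval 5.59 to 6.54). Within the group the copies behaved unequally, and a few were seen in both genotypes at like levels.

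On the plus-strand arm, from the centromeric end, Gm2897 (3049285 to 3076840) had 1.098, 1.04 and 1.66 CPM in KO and 0 in every WT library, at least 42.7-fold higher against a floor of 3 counts over the WT libraries together. Each at-least value here sets the assigned KO counts against that floor. It leaves out counting error in KO and the way RSEM divided shared reads. The identical pair Gm10409 and Gm3020 had 1.73, 1.94 and 1.90 CPM each in KO and 0.115, 0.106 and 0.0741 CPM in WT. The ratio of assigned counts was 18.4 (95% interval 10.01 to 37.0). The WT values rest on fractional counts of 4.87, 4.22 and 1.79 per copy. Of the words of Gm10409, 44.4% also occur in Gm3591 and 27.0% in Gm3636. Whether WT libraries held reads of the pair itself was not tested. Gm5796 had 0.114, 0.486 and 0.509 CPM in KO and 0 in all WT libraries, at least 14.6-fold higher. Gm10340 was also at 0 in WT and reached at most 0.281 CPM in KO.

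Gm2974 (4182576 to 4204895) had 1.94, 1.96 and 2.05 CPM in KO, against 0.0440, 0 and 0 CPM in WT. Its assigned WT counts, 1.86 in all, came from passage 2 alone, and the ratio was 113 (95% interval 28.8 to 874). 2610042L04Rik (4334763 to 4354688), the copy named takusan, was low, with 0.424, 0.388 and 0.550 CPM in KO and 0.0350, 0.0827 and 0.0608 CPM in WT. Its ratio was 7.41 (95% interval 3.33 to 21.9), and 630 of its 1823 words occur in no other gene.

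Toward the turn in orientation, Gm3173 had 0.0400, 0.512 and 0.744 CPM in KO and 0, 0 and 0.0327 CPM in WT. Gm3317 and Gm3488, with identical counts, had 0.437, 0.684 and 0.533 CPM in KO and 0 in all WT libraries, at least 21.1-fold higher in assigned counts. All words of Gm3317 occur in Gm3488. Gm3298 had assigned counts in the passage 3 libraries only, 0.155 CPM in KO and 0.0857 CPM in WT, so its genotypes overlap.

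On the minus-strand arm, Gm3194 had 1.43, 1.54 and 2.04 CPM in KO and 0.0761, 0 and 0.0538 CPM in WT. Gm3383 had 1.43, 1.68 and 2.45 CPM in KO and 0.0761, 0.0456 and 0.0538 CPM in WT (ratio 30.5, 95% interval 14.6 to 88.6). Transcripts Gm3194-202 and Gm3383-202 were 100% identical over 1813 bases, and their counts were the same at KO passage 2 and at WT passages 2 and 4. Gm3373, which lies inside Gm3383, had 1.87, 1.19 and 1.58 CPM in KO and 0 in all WT libraries, at least 50.7-fold higher in assigned counts. Of its words, 95.4% occur in another gene. Gm3411 had 1.55, 1.30 and 1.92 CPM in KO and 0.0950, 0.0819 and 0 CPM in WT.

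Gm3591 (ENSMUSG00000096904, 6405827 to 6412482) was the copy with the most reads in KO. It had 9.21, 8.15 and 12.7 CPM in KO, from 255.56, 567.82 and 399.83 expected counts, against 0.130, 0 and 0 CPM in WT, from 5.51, 0 and 0. All its assigned WT counts came from passage 2, where the near-identical Gm3636 had 102.14. Whether they are reads of Gm3636 divided by RSEM was not tested. The ratio was 183 (95% interval 77.1 to 459), and 90.7% of its words occur in another gene. In TPM, which accounts for length, it had the highest mean of the 39 members that share any word, with 9.12, 8.89 and 14.9 TPM in KO and 0.140, 0 and 0 TPM in WT.

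Gm3558 (7545151 to 7568566) was next among the copies near absent from WT, with 4.78, 4.30 and 5.94 CPM in KO and 0, 0.133 and 0 CPM in WT. Its ratio was 96.3 (95% interval 43.6 to 316). Gm10406 had 1.54, 0.943 and 2.12 CPM in KO and 0.0151, 0 and 0 CPM in WT. Gm3739 had 0.865, 0.879 and 1.14 CPM in KO and 0.0447, 0.0331 and 0 CPM in WT. For Gm3667 the values were 0.474, 0.409 and 0.339 CPM in KO and 0.0409, 0 and 0 CPM in WT. These 3 copies had every KO library above every WT library.

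A set of 6 takusan copies was present in both genotypes, each with 10 or more counts in at least 2 WT libraries. Gm3636 (ENSMUSG00000091754, 6735685 to 6742332) had 3.35, 3.11 and 3.87 CPM in KO and 2.41, 1.56 and 2.49 CPM in WT. The KO libraries stood above the WT libraries by 1.58-fold (95% interval 1.34 to 1.87), but the difference did not pass the test (log2 0.68 ± 0.26 SE, edgeR adjusted p = 0.184). Gm3512 (7153511 to 7174533) had 1.54, 0.780 and 1.43 CPM in KO and 1.51, 1.61 and 1.31 CPM in WT, and the genotypes overlapped (log2 -0.26 ± 0.33 SE, edgeR adjusted p = 0.695). Gm8206, Gm3468 and Gm3696 also overlapped between the genotypes, with log2 changes of -0.32, -0.52 and 0.49 and edgeR adjusted p of 0.732, 0.464 and 0.586. Gm8108 had 1.76, 1.08 and 1.82 CPM in KO and 0.673, 0.621 and 0.649 CPM in WT, higher in all 3 KO libraries (log2 1.24 ± 0.31 SE, edgeR adjusted p = 0.0835, and 0.0419 with passage as a block).

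Together these 6 copies had 7.96, 7.23 and 8.61 CPM in KO and 6.66, 5.16 and 6.73 CPM in WT, a pooled ratio of 1.26 (95% interval 1.14 to 1.40). The other 20 copies had 31.2, 30.4 and 40.9 CPM in KO and 0.787, 0.673 and 0.349 CPM in WT, a pooled ratio of 51.3 (95% interval 40.3 to 65.8). The 6 were chosen on their WT counts, so this contrast is a description. They held 17.4% to 20.3% of the group's counts in KO libraries and 88.5% to 95.1% in WT libraries. Gm3591 alone held 21.7% to 25.7% of the counts in KO libraries, while Gm3636 held 26.8% to 35.1% in WT libraries.

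**Figure D3:**
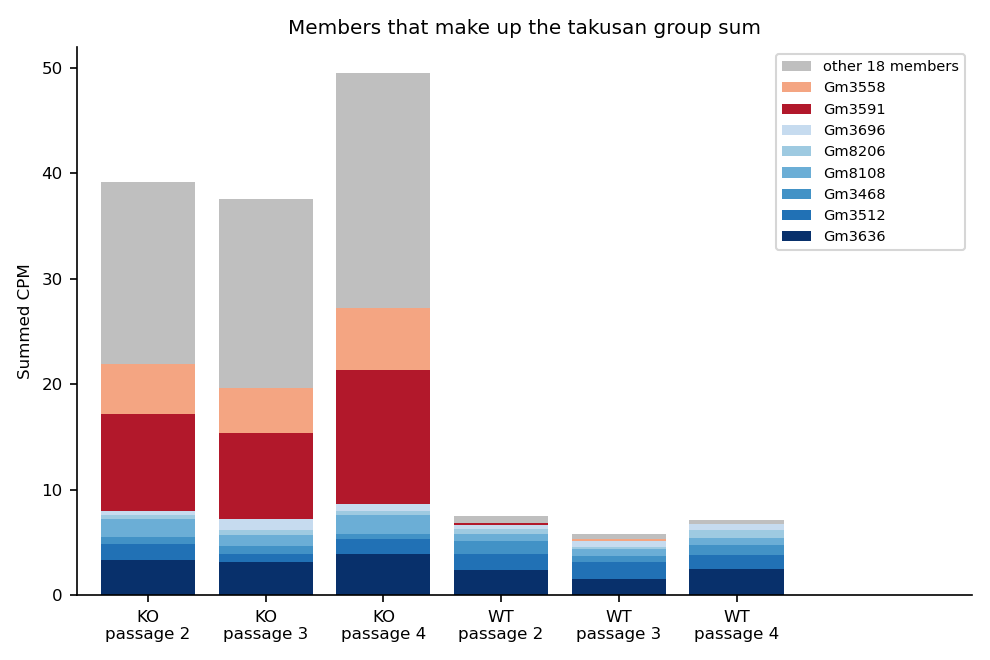
Summed CPM of the 26 takusan group members in each library, KO bars left of WT bars, with the 6 copies present in both genotypes in blues, Gm3591 and Gm3558 in reds and the other 18 members in grey. The blue layer is 7.23 to 8.61 CPM in KO and 5.16 to 6.73 CPM in WT, a pooled ratio of 1.26, while the red and grey layers are near 0 in WT.

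Promoter windows from the reference are shown for a copy near absent from WT and a copy present in both genotypes. RefSeq promoter windows (GRCm38.p6, 250 bases before to 50 after the start) matched 29 of the 41 members by symbol. Those of Gm3667 (chr14:6889882-6890181, minus strand) and Gm3636 (chr14:6757008-6757307, minus strand) have capitals where they differ. The RefSeq start of Gm3636 lies upstream of its GENCODE start at 6742332, so the printed window lies wholly outside the gene as counted here. Whether the counted transcripts begin in that window was not tested.
Gm3667: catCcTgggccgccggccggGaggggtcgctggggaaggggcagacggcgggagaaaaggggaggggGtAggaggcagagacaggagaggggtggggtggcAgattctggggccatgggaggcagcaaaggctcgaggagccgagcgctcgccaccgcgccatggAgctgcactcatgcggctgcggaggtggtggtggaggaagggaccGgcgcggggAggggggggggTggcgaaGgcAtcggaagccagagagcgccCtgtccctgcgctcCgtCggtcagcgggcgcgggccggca
Gm3636: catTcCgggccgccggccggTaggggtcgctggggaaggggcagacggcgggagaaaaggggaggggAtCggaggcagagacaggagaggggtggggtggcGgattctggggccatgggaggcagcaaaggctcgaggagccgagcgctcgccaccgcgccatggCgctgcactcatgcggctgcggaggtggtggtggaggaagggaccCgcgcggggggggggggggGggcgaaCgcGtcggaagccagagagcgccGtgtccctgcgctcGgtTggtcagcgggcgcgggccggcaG
The 2 windows were 94.7% identical, differing at 16 alignment columns. On either strand, neither held TATAAA (the TATA box), GGGCGG (the GC box) or CACGTG (the E box). Of the 19 takusan group windows, 0 held TATAAA, 9 held GGGCGG and 5 held CACGTG, where 14.1%, 35.6% and 7.09% of all 27025 windows did. The 3 motifs do not overlap one another in these letters, and a match is a description of the reference only.

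The Gm5795 group was all but absent from WT. Its 4 members summed to 2.74, 2.99 and 2.95 CPM in KO, against 0, 0.00501 and 0 CPM in WT, at least 103.9-fold higher. KO libraries agreed closely, with 2.90 ± 0.134 CPM (SD, n = 3). Gm3453 gave most of the reads, with 1.85, 1.74 and 1.38 CPM in KO and 0, 0.00501 and 0 CPM in WT. Gm5795 had 0.423, 0.446 and 0.808 CPM in KO, and Gm3149 had 0.368, 0.537 and 0.527 CPM in KO, both with 0 in all WT libraries. Gm8279 had 0.105 to 0.270 CPM in KO and 0 in WT.

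The pair D830030K20Rik and Gm16440 summed to 0.650, 0.483 and 0.318 CPM in KO, against 0.0485, 0.0501 and 0.0828 CPM in WT (ratio 8.41, 95% interval 3.70 to 24.1). D830030K20Rik had 0.361, 0.336 and 0.318 CPM in KO and 0.0236, 0.0501 and 0.0828 CPM in WT, the WT values from 5 counts in all. Gm16440 had 0.289, 0.147 and 0 CPM in KO and 0.0248, 0 and 0 CPM in WT.

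The 4 processed transcripts summed to 1.55, 1.05 and 1.41 CPM in KO and 0.178, 0.1002 and 0.0828 CPM in WT (ratio 9.78, 95% interval 5.50 to 17.8). Gm26552 overlaps Gm3317 on the opposite strand, and Gm26893 overlaps Gm3488 in the same way. Gm26893 lies on the same strand as its other coding neighbours, Gm3194 and Gm3383. Gm26552 and Gm26893 had 0.542, 0.310 and 0.387 CPM each in KO and 0.0104, 0 and 0 CPM in WT. Gm26650 and Gm26680 had 0.197 to 0.277 and 0.226 to 0.359 CPM in KO, against 0 to 0.0631 and 0.0751 to 0.0946 CPM in WT. The span of Gm26680 overlaps that of Gm3636 on the opposite strand over 6648 bases, while their transcripts share no word of 64 bases.

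The members outside the groups gave a mixed picture. Gm3248 had 0.130, 0.602 and 0.678 CPM in KO and 0.203, 0.198 and 0.137 CPM in WT, and Gm17045, the processed pseudogene, had 0.131, 0.441 and 0.412 CPM in KO and 0.0939, 0 and 0.220 CPM in WT, so both overlapped. Gm10044, a processed transcript with little shared sequence, went the other way, with 0.0721, 0.172 and 0.127 CPM in KO and 0.304, 0.376 and 0.331 CPM in WT. Every KO library lay below every WT library, but the change did not pass the test (log2 -1.33 ± 0.42 SE, edgeR adjusted p = 0.136).

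Dnase1l3, which encodes a secreted DNase, stood at the distal edge with 0.180, 0.273 and 0.286 CPM in KO and 0.331, 0.1002 and 0.290 CPM in WT, with overlapping genotypes (log2 0.08 ± 0.51 SE, edgeR adjusted p = 0.953).

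**Figure D4:**
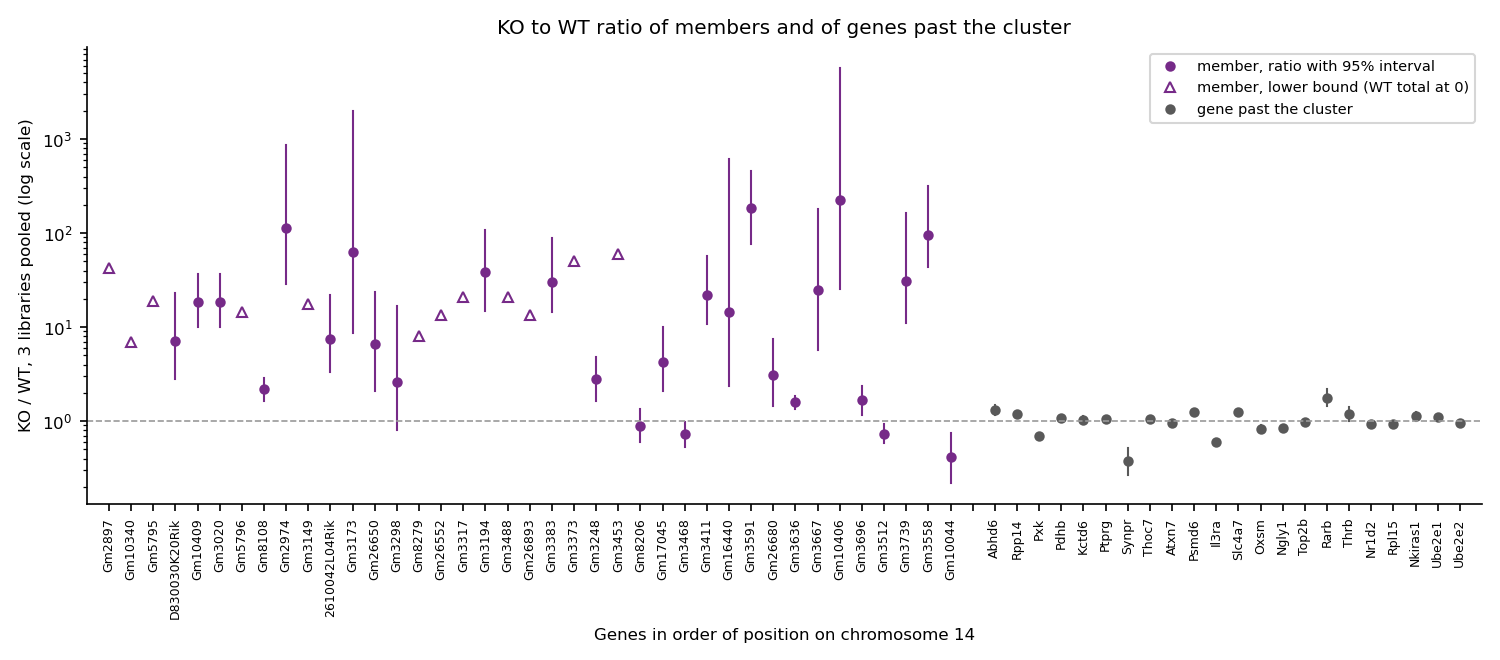
Pooled KO to WT ratio on a log scale for the 39 members that share any word and then for the 22 tested genes past the cluster, in order of position, with 95% counting intervals as vertical lines and open triangles for lower bounds where the WT total rounded to 0. Most copies lie far above 1, broken by copies near 1 such as Gm8206 and Gm3512, and the genes past the cluster lie between 0.372 (Synpr) and 1.78 (Rarb).

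Over the members, 31 of 41 had enough counts for the edgeR test, and 23 were higher in KO and 0 lower at an adjusted p under 0.05, where 0.934% of all 16603 genes tested were higher and 1.55% lower. At an unadjusted p under 0.05, 25 were higher and 1, Gm10044, lower, and DESeq2 called 15 higher and 0 lower. With passage as a block 24 were higher, Gm8108 being added, where 4.69% of genes were. Of the 23, 22 entered the list through KO counts only, so nothing is read from this share. All 3 KO libraries lay above all 3 WT libraries for 31 of 41 members (12.5% of the 18931 genes with 10 or more counts in a library) and below for 1, Gm10044 (13% of those genes). A further 9 overlapped. With under 3 counts in each WT library and 10 or more in at least 2 KO libraries stood 16 members, where 0.232% of the 18931 genes did. The reverse pattern was met by 0 members and 0.0845% of genes. With the KO passage 3 library left out, 6 members were called, and 14 without KO passage 4, 13 without WT passage 2 and 9 without WT passage 3.

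Passage had no called effect on the cluster. No member changed per passage (0 of 31 at an adjusted p under 0.05 and 0 at an unadjusted p under 0.05 with edgeR, 0 with DESeq2), where 6.25% of all genes did. The takusan group slope was log2 0.07 ± 0.09 per passage (SE, edgeR adjusted p = 0.698). The Gm5795 group had a slope of 0.05 ± 0.21 (edgeR adjusted p = 0.924). The slopes of KO and WT differed for 0 of 31 members and 0% of all genes in the edgeR test, with 1 member, Gm3591, and 1137 genes in all at an unadjusted p under 0.05. DESeq2 called 0 members and 83 genes in all. With 2 residual degrees of freedom that test is weak.

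**Figure D5:**
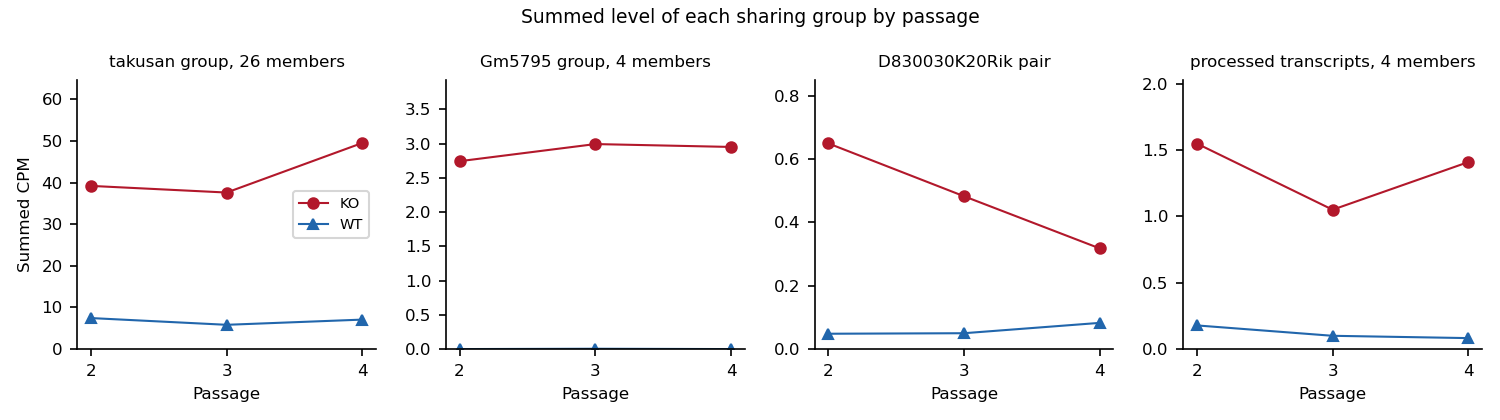
Summed CPM of the 4 sharing groups at passages 2, 3 and 4, with KO as circles and WT as triangles, each panel on its own axis from 0. KO lies above WT at every passage in all 4 panels, and the takusan group sum is 39.2, 37.6 and 49.5 CPM in KO against 7.45, 5.83 and 7.08 CPM in WT.

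Genes past the cluster were measured beside it. Of 27 named genes further along chromosome 14, starting from 8002902, 22 were tested and 0 passed in either direction with edgeR. At an unadjusted p under 0.05, Psmd6 and Slc4a7 were higher in KO and Synpr, Il3ra and Pxk lower, and DESeq2 called Il3ra and Pxk lower. Synpr, which encodes the synaptic vesicle protein synaptoporin, had the lowest ratio, with 0.469, 0.459 and 0.318 CPM in KO and 0.615, 1.202 and 1.99 CPM in WT (log2 -1.57 ± 0.47 SE, edgeR adjusted p = 0.120). The 22 had a median log2 change of 0.05, against -0.01 over all genes tested. All 27 together summed to 1234 to 1333 CPM in KO and 1254 to 1344 CPM in WT. With passage as a block, Pxk (adjusted p = 0.0190) and Il3ra (adjusted p = 0.0316) were lower in KO, with edgeR log2 changes of -0.52 and -0.69.

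A relative of the array lies on the same chromosome outside the interval. Gm2237 (19563800 to 19585135, minus strand) holds 50.2% of the words of Gm3591. It had 3.38, 2.29 and 3.21 CPM in KO and 2.28, 1.76 and 1.59 CPM in WT, above in all KO libraries without passing the test (log2 0.64 ± 0.26 SE, edgeR adjusted p = 0.219). Its neighbours Gm2244 and Gm5458, which share words with D830030K20Rik and Gm3149, had 0 counts in all libraries.

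Genes tied to the known partners of takusan proteins were measured alongside. Of 30 discs-large scaffolds, guanylate kinase relatives and synaptic receptor genes, 26 were tested and 0 passed between the genotypes with edgeR. At an unadjusted p under 0.05, 2 were higher in KO, Shank2 and Homer3, and 3 lower, among them Shank1 and Gria4, and DESeq2 called 1 higher, Shank2, and 2 lower, among them Gria4. Their median log2 change was -0.14. Dlg5, the related scaffold gene, had 149, 194 and 212 CPM in KO and 153, 190 and 241 CPM in WT (log2 -0.07 ± 0.19 SE, edgeR adjusted p = 0.876), and it rose with passage (log2 0.29 per passage, edgeR adjusted p = 0.0219). The rise was not particular to Dlg5, since 4 of the 26 rose and 2 fell with passage, where 6.25% of all genes changed. Dlg4, the PSD-95 gene, had 83.04, 91.6 and 94.3 CPM in KO and 95.4, 101 and 90.2 CPM in WT (log2 -0.09 ± 0.09 SE, edgeR adjusted p = 0.616). With the block, Shank2 was higher and Shank1 and Gria4 lower in KO (edgeR adjusted p = 0.0190, 0.0220 and 0.0223).

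Markers of cell types in which such genes might be active were set beside the cluster, and their part in the result was not tested. Neural markers summed to 58.4 to 81.1 CPM in KO and 66.9 to 75.8 CPM in WT, with 8 of 12 tested. Germline markers summed to 0.900 to 1.44 CPM in KO and 1.16 to 2.08 CPM in WT, with 3 of 10 tested. Markers of the 2-cell embryo were at 0 in all libraries for 6 of 7 genes and summed to at most 0.0143 CPM in KO and 0.0250 CPM in WT. Macrophage markers (8 of 8 tested) summed to 40.3 to 276 CPM in KO and 56.9 to 381 CPM in WT, and all 8 fell with passage. Epithelial (6 of 6 tested), endothelial (5 of 5) and muscle markers (3 of 6) summed to 3.75 to 14.5, 8.49 to 21.02 and 18.3 to 89.96 CPM in KO, and to 1.2003 to 19.5, 5.26 to 16.1 and 15.2 to 47.8 CPM in WT. The fall with passage was not particular to macrophage markers. Of the tested markers, 4 endothelial, 3 epithelial, 3 neural and 2 muscle also fell, and 0 germline did. In these 7 lists 0 genes passed the genotype test with edgeR, and no 2-cell marker had enough counts for it. At an unadjusted p under 0.05, Kdr was higher and Tdrd1 lower in KO, and DESeq2 called Kdr alone. With passage as a block, Krt18 and Des were higher in KO (edgeR adjusted p = 0.0395 and 0.0348), and Ptprc, Csf1r, Adgre1 and Itgam were lower (edgeR adjusted p = 0.0382, 0.0487, 0.0411 and 0.0114). In bulk samples, fewer cells of a type and less RNA per cell cannot be told apart.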

How the data were processed

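Trimmomatic 0.39 trimmed the reads and RSEM quantified them on GRCm38, per the submitters' processing notes. No source used here gives the RSEM version, annotation release or strand setting. Each deposited file lists the authors' expected counts, in which RSEM splits ambiguous reads among genes. It also lists the authors' TPM values, which account for length within a library, and the authors' FPKM values, fragments per length and depth, which were not tested. Of the gene IDs, 99.5% matched GENCODE M21.

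Rounded expected counts were filtered by genotype (minimum count 10) and TMM-scaled, and edgeR 4.0.16 in R 4.3.3 gave robust, 2-sided quasi-likelihood tests, with Benjamini-Hochberg adjustment over 16603 genes and calls under 0.05. The fits held genotype, then genotype and a linear passage slope, then their interaction. Pooled ratios have exact 95% binomial intervals on rounded counts. The same fits were tested on simulated data. Alternatives were DESeq2 1.42.0, limma 3.58.1 on log2(TPM + 1) for genes with a mean TPM of 0.1 or more, other filters, effective lengths, summed copies, the genotype tag, a passage block and each library left out. Deviations from genotype means correlated at 0.488, 0.137 and 0.416 between same-passage libraries of passages 2, 3 and 4. These values cannot tell paired cultures from a passage change common to both genotypes. The labels do not state pairing, so the main genotype fit had no block. Values in every library are given for members called, the 8 with the highest mean TPM, and those with under 3 counts in one genotype and 10 or more in at least 2 libraries of the other. One member and one listed gene are counted but not reported here. The members, marker lists, sharing measure and tests were chosen with earlier results of these data known, and the sum over all sharing genes of the interval was added after seeing the values. No 2 libraries held the same counts (chi-square per degree of freedom 32.6 or more).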

Additional observations from a re-analysis of the deposited data

Results flagged for a closer look

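In 3 members the CPM moved one way at both passage steps in KO and the other way at both steps in WT, and the opposite direction was not itself tested as such. D830030K20Rik had 0.361, 0.336 and 0.318 CPM in KO at passages 2, 3 and 4 (a difference of -0.0427 CPM between passages 4 and 2) and 0.0236, 0.0501 and 0.0828 CPM in WT. Gm3739 had 0.865, 0.879 and 1.14 CPM in KO (a difference of 0.275 CPM between passages 4 and 2) and 0.0447, 0.0331 and 0 CPM in WT. Gm3248 had 0.130, 0.602 and 0.678 CPM in KO (a difference of 0.548 CPM between passages 4 and 2) and 0.203, 0.198 and 0.137 CPM in WT. The edgeR test of unequal slopes gave adjusted p of 0.876 for D830030K20Rik and 0.833 for Gm3739, and Gm3248 had too few counts for it. The WT values of D830030K20Rik, Gm3739 and Gm3248 rest on 5, 3.21 and 19.8 expected counts in all.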

How the results depend on the processing

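The genotype difference of the sum over all sharing genes of the interval kept its direction and call with passage as a replicate block (log2 2.68) and without each library in turn (2.56 to 2.75). That sum was chosen with the values known and consists mostly of member counts. Its stability is therefore no independent evidence of a genotype difference. Calls on the 4 group sums are not read, since their members entered mostly or wholly through KO counts. At a bound of 50% the largest group kept 23 of 26 members and no longer held 2610042L04Rik, Gm10409 or Gm3020. The number of members called higher, 23, was 15 with DESeq2 (9 of the 23 had no adjusted p there), 14 with a minimum count of 30 (only 14 of the 23 were tested), 0 with the genotype tag, 24 with passage as a replicate block, and 6 to 23 without each library in turn. Without a filter, 1 member rose with passage (Gm3173) and 1 had a higher KO slope (Gm3591). Leaving out 1 library gave log2 changes of 2.79 to 3.25 for the D830030K20Rik pair and 3.17 to 3.78 for the processed transcripts, and a takusan group slope of -0.044 to 0.18. Over all genes, the 155 called higher and 257 lower in KO were 744 and 917 with DESeq2, 377 and 469 without a filter, 91 and 84 with limma on TPM, 778 and 1057 with the replicate block and 0 and 0 with the genotype tag. Leaving out 1 library gave 14 (KO passage 3) to 375 (WT passage 4) higher and 24 to 472 lower, the same libraries setting both ends. The 461 rising and 577 falling per passage were 771 and 938 with DESeq2, 896 and 1547 without a filter and 191 and 252 with limma, and 97 to 583 and 165 to 703 without each library in turn. Sharing held for 36 to 38 members with words of 32 or 100 bases or a bound of 50%. Depth limits single copies, of which 9 had 0 counts in all WT libraries.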

Other observations

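Over all genes with 10 or more counts in a library, 44 had under 3 counts in every WT library and 10 or more in at least 2 KO libraries, and 16 had the reverse. Of the 44, 21 lay on chromosome 14, 16 of them members of the cluster. Of the 28 that were no members, 8 were pseudogenes and 9 shared 25% or more of their words with another gene. Of the 16 with the reverse pattern, 7 were pseudogenes and 10 shared 25% or more. Named after their values were seen, the processed pseudogene Gm45315 on chromosome 7 had 0, 1.48 and 2.74 counts in KO and 635, 599 and 207 in WT, and Gm45246 on chromosome 8 had 51.4, 123.5 and 58.9 counts in KO and 1.04, 0 and 0 in WT.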
